A study of Mus musculus with 16 samples.

Results

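The nuclear genes of the oxidative phosphorylation subunits were followed in epididymal fat of 4 groups of high-fat-fed mice. They were chosen by gene symbol alone, from the array's probe-to-gene table, as all symbols that begin with *Nduf* plus a, b, c, s or v and a digit, *Uqcr*, *Cox* plus a digit between 4 and 8, or *Atp5*, and the symbols *Sdha* to *Sdhd*. This gave 84 genes, each with 1 transcript cluster, of 19572 clusters with 1 symbol and 22206 clusters tested in all. Complex I had 37 of them, complex II 4, complex III 8, complex IV 18 and complex V 17. A few symbols of the rule belong to paralogs or to proteins now placed elsewhere, such as *Ndufa4*, which carries a complex I name and is today counted with complex IV.

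The mice were male C57BL/6 pups, whose dams were of the NCrSlc substrain in the study's methods. In UN-TUDCA and UN-Veh, the dams had been restricted to 60% of the energy intake of controls during pregnancy and the litters were set to 4 pups, so that the pups grew rapidly during lactation. In NN-TUDCA and NN-Veh, the dams ate regular chow freely, and the study's methods set their litters to a larger size than in the UN groups. The source label of the NN-TUDCA samples also carries the tag RG, for rapid growth, whereas their titles and maternal diet label give NN, and the titles were followed. All 4 groups, controls included, received a high-fat diet from 9 wks of age. Tauroursodeoxycholic acid (TUDCA), a bile acid conjugate used to relieve endoplasmic reticulum stress, or its vehicle (Veh) was given by mouth between 11 and 16.5 wks. The study's methods place the sampling of fat at 16.5 wks of age. Each group had 4 arrays, 1 per pup, and the litter of each pup was not known, so the pups were treated as independent. Undernourishment in utero and rapid growth in a small litter came together in the UN groups and cannot be told apart.

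The mitochondrial inner membrane carries 5 complexes. Complexes I and II pass electrons from NADH and succinate to ubiquinone, complex III passes them to cytochrome c, and complex IV passes them to oxygen. Complexes I, III and IV pump protons, and complex V, the ATP synthase, uses the gradient to make ATP. Most subunits are encoded in the nucleus and the core of complexes I, III, IV and V also holds subunits encoded in mitochondrial DNA. White adipocytes hold fewer mitochondria than brown ones. None of the 13 mitochondrially encoded subunits was measured here by symbol, so the values below concern nuclear transcripts only.

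The arrays carried adipocyte transcripts. The mean log2 intensity of 12 adipocyte markers was 15.92 to 16.39 on each array, while *Ucp1*, the uncoupling protein of brown fat, lay between 3.65 and 4.64, below the median of the antigenomic control probes (6.27 to 6.85), which match no mouse sequence. Of the 84 subunit genes, 64 were above the 95th percentile of these controls on all 16 arrays. *Cox4i2*, *Cox6b2* and *Cox7b2* were below their median on all 16. Intensities of different probe sets are not amounts, and no gene was compared with another by its level. In whole tissue, fewer cells of a type and less RNA per cell cannot be told apart.

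With all 16 arrays, the means of the complexes did not separate the groups. Averaged over the 84 genes, the log2 intensity was 12.40 ± 0.15 in UN-TUDCA, 12.29 ± 0.21 in UN-Veh, 12.35 ± 0.07 in NN-TUDCA and 12.33 ± 0.09 in NN-Veh (SD, n = 4 each). In UN-TUDCA it was 12.37, 12.35, 12.61 and 12.27 on replicates 13 to 16, against 12.60, 12.23, 12.17 and 12.18 on replicates 09 to 12 of UN-Veh. Replicate 15 of UN-TUDCA and replicate 09 of UN-Veh stood above the other 3 arrays of their own group, and the ranges of the groups overlapped. In NN-TUDCA the mean was 12.42, 12.34, 12.25 and 12.38 on replicates 05 to 08, against 12.22, 12.34, 12.32 and 12.43 on replicates 01 to 04 of NN-Veh.

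**Figure D1:**
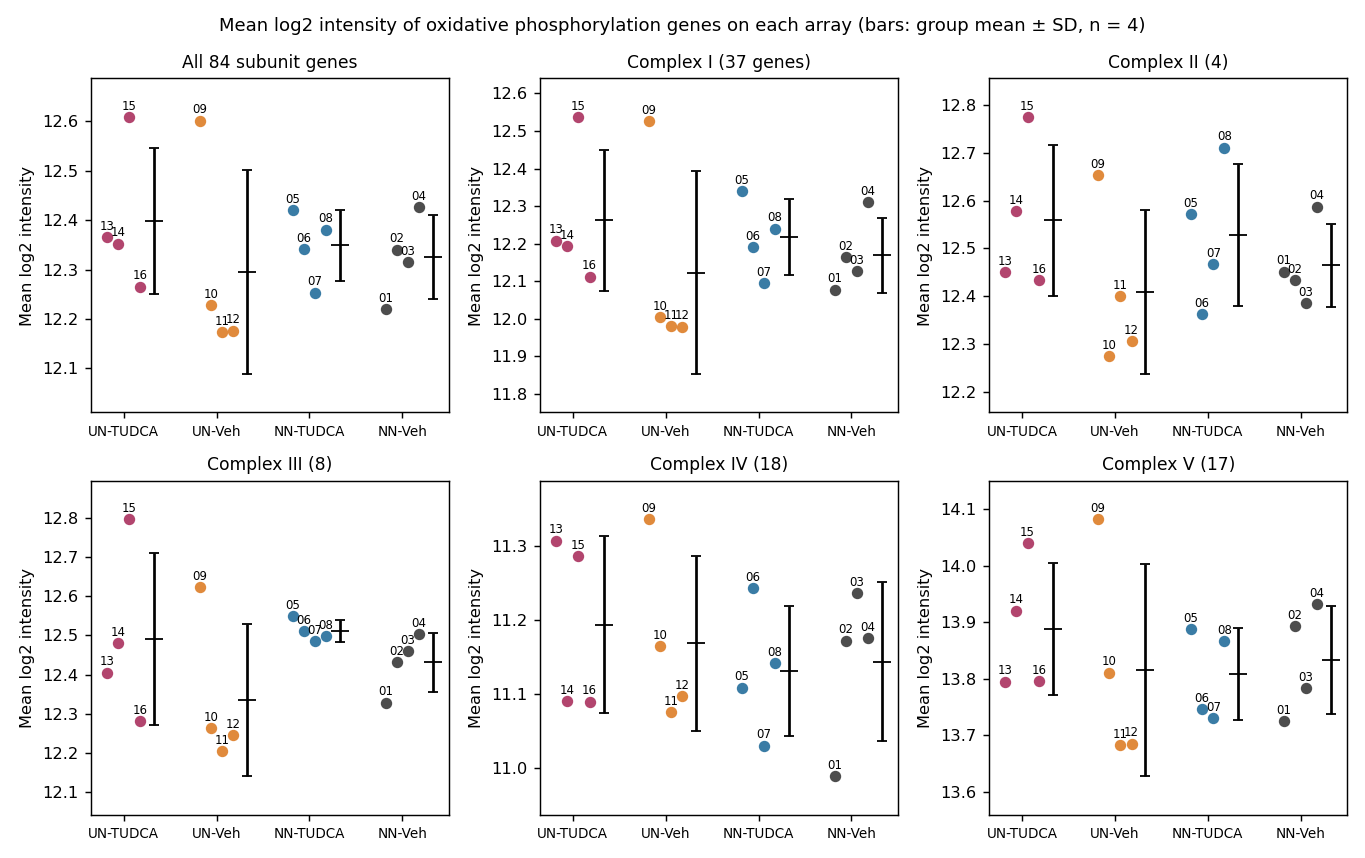
Mean log2 intensity of the subunit genes on each array, for all 84 genes and for each complex (points, numbered by replicate), with the group mean ± SD (n = 4, bars). UN-Veh replicate 09 and UN-TUDCA replicate 15 are high for all 84 genes at 12.60 and 12.61, and the groups overlap in every panel. In complexes I and III, UN-Veh replicates 10 to 12 lie below all other arrays.

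UN-Veh replicate 09 was high in nearly every subunit gene. It was the highest array of UN-Veh in 75 of the 84 genes (89.3%), whereas it was the highest in 32.5% of all clusters. Among the 3999 clusters with a mean above the lowest quartile of the subunit genes, it was the highest in 42.0%. Its mean over complex I was 12.53, against 11.98 to 12 on the other 3 arrays of UN-Veh. Those 3 arrays lay below all arrays of the other groups, of which the lowest was 12.08. In complex III they had 12.20 to 12.26, again below all arrays of the other groups, of which the lowest was 12.28. This was not so in complexes II, IV and V or over all 84 genes. UN-TUDCA replicate 15 was likewise the highest of its group in 58 genes (69.0%), against 31.0% of all clusters and 31.1% of the brighter ones.

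These 2 arrays differed from the rest of their groups in other transcripts too. UN-Veh replicate 09 had the lowest antigenomic median of all 16 arrays (6.27). Its mean over 8 T and NK cell markers was 7.28, against 6.47 to 6.62 on the other UN-Veh arrays, and its mean over 9 mesothelial markers was 6.41, against 7.39 to 8.02. Its mean over 12 adipocyte markers was 16.26, against 15.92 to 16.06 on the other UN-Veh arrays. None of the 9 mesothelial markers was above the 95th percentile of the controls on this array, against 1 to 2 on the other UN-Veh arrays. None of the 8 T and NK cell markers was above it on any of the 16 arrays. UN-TUDCA replicate 15 had the highest mesothelial mean (9.33) and the lowest macrophage mean of its group (10.88 over 11 markers). The part of these differences in the subunit values was not tested. The counts of subunit genes that rest on these arrays are therefore also given without replicate 09 of UN-Veh or without replicate 15 of UN-TUDCA.

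**Figure D2:**
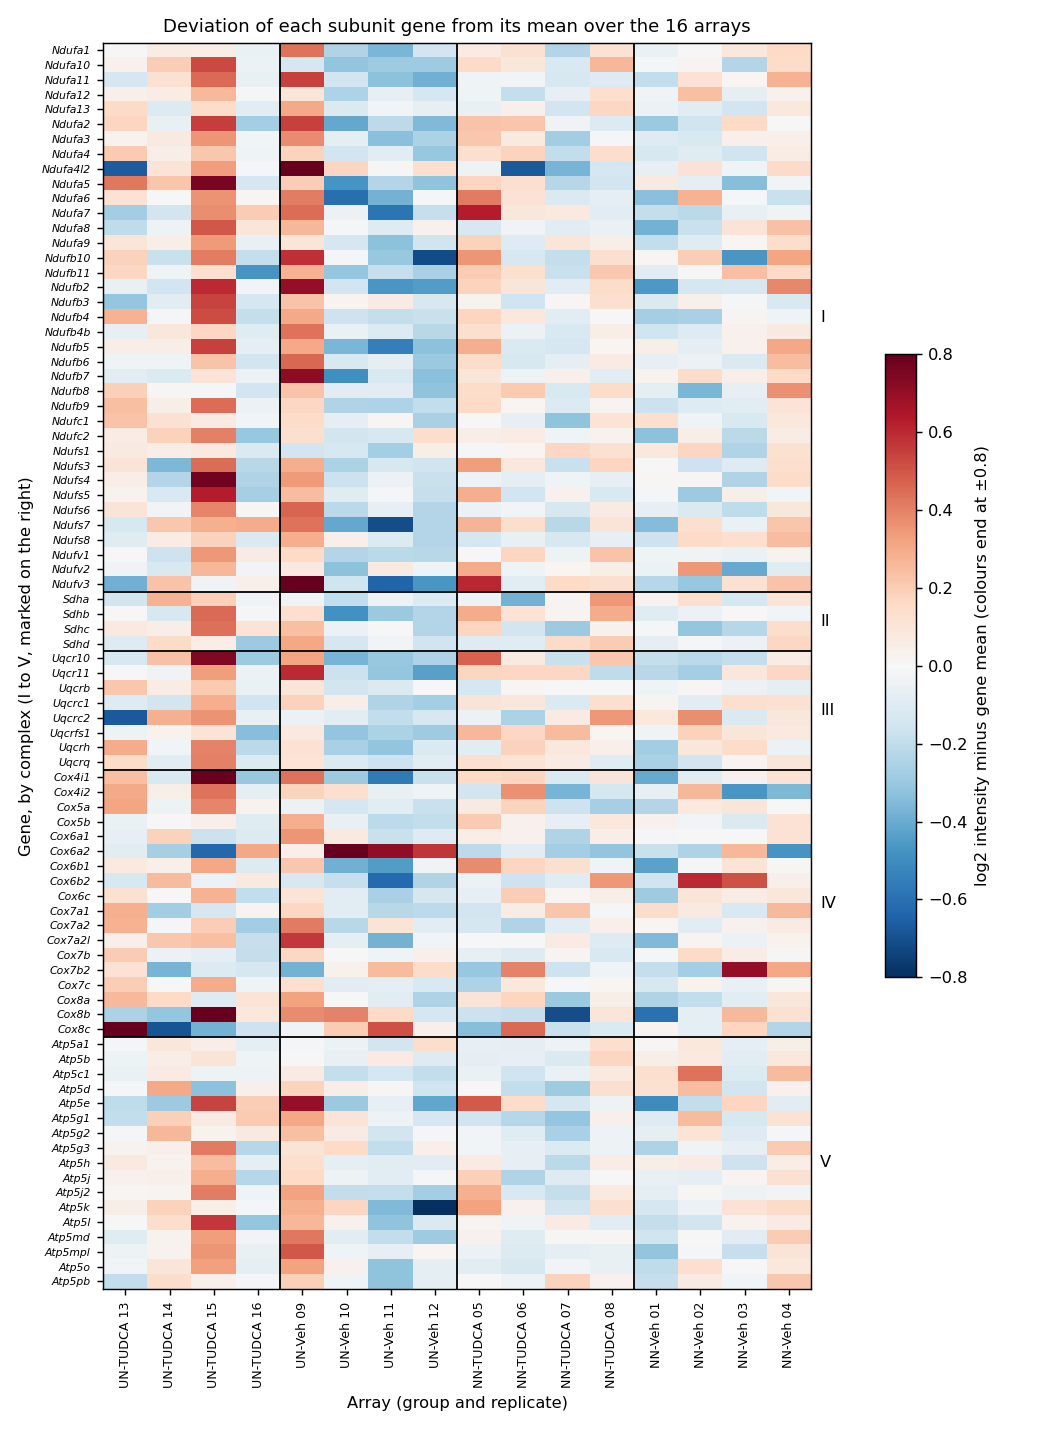
Each of the 84 subunit genes (rows, by complex) on each of the 16 arrays (columns), as log2 intensity minus the mean of that gene over all arrays. The columns of UN-Veh replicate 09 and UN-TUDCA replicate 15 are red over most genes, and replicate 09 is the highest of UN-Veh in 75 of 84.

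The comparison of UN-Veh with NN-Veh asks what undernourishment in utero with rapid infantile growth left in the fat of obese adults. A gene was called when it passed the thresholds of the study's methods, an unadjusted p under 0.05 in limma and a fold change of at least 1.3 (0.38 on the log2 scale). In this comparison 1 of the 84 genes was called higher, where the share of all clusters was 2.46%, and 1 was called lower, where it was 1.99%. No subunit gene passed an adjusted p of 0.05 in limma (Benjamini-Hochberg), where 0.00901% of all clusters did. An unadjusted p under 0.05 was found for 4, against 6.15% of all clusters, and the methods' t-test also called 1 higher and 1 lower. The median log2 difference was -0.03 over the 84 genes and 0.01 over all clusters. Of the 84, 57 lay below zero. The 95% interval of 36 genes lay inside a 1.3-fold change in either direction, and that of the other 48 reached or passed it. Among cell type markers, 3 of 8 of T and NK cells and 2 of 11 of macrophages were called higher in UN-Veh. Their medians were 0.42 and 0.23. Of 9 mesothelial markers, 3 were called lower, with a median of -0.84. Of 12 adipocyte markers, 1 was called lower, with a median of -0.10. On any array of these groups, no T and NK cell marker and at most 2 mesothelial markers were above the 95th percentile of the controls. Without replicate 09 of UN-Veh, 2 macrophage markers were called higher, against 3.22% of all clusters. No T and NK cell or mesothelial marker was then called. Of the 12 adipocyte markers, 3 were then called lower, against 3.42% of all clusters. The part of these markers in the subunit values was not tested.

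Both subunit genes called between UN-Veh and NN-Veh were complex IV paralogs of low signal. *Cox6a2*, the isoform of subunit 6A of heart and skeletal muscle, had log2 intensities of 6.71, 7.54, 7.38 and 7.24 in UN-Veh, against 6.49, 6.42, 6.93 and 6.19 in NN-Veh. Of the UN-Veh arrays, 3 were above all of NN-Veh, and replicate 09 of UN-Veh was below 1 array of NN-Veh. The difference was 0.71 ± 0.21 (SE, limma, adjusted p = 0.517). In UN-TUDCA the gene had 6.57, 6.40, 6.04 and 6.97, all but 1 below all of UN-Veh, and the difference of UN-TUDCA from UN-Veh was -0.72 ± 0.21 (SE, limma, adjusted p = 0.279). In NN-TUDCA it had 6.45, 6.58, 6.39 and 6.35, inside the range of NN-Veh.

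*Cox6a2* was above the antigenomic median on 6 of the 16 arrays, and these included the 4 of UN-Veh. The interaction for this gene was -0.65 ± 0.29 (SE, limma, adjusted p = 1). Among 12 striated muscle markers, *Pvalb*, a calcium-binding protein of fast fibers, was the 1 called in either comparison, at 1.38 ± 0.27 in UN-Veh against NN-Veh and -1.43 ± 0.27 in UN-TUDCA against UN-Veh (SE, limma). The shares of all clusters were 2.46% called higher in the former and 3.18% called lower in the latter. The mean over these markers was 6.28 to 6.61 in UN-Veh and 6.12 to 6.32 in NN-Veh, and at most 1 of the 12 was above the 95th percentile of the controls on any array. The part of muscle RNA in the *Cox6a2* result was not tested.

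*Cox6b2*, the testis isoform of subunit 6B, had log2 intensities of 4.70, 4.64, 4.20 and 4.59 in UN-Veh, against 4.67, 5.43, 5.34 and 4.87 in NN-Veh. All of these lay below the antigenomic median, so the gene was not above background in either group. The fitted difference was -0.54 ± 0.18 (SE, limma, adjusted p = 0.598). Of 12 testis and germ cell markers, 4 were called lower in UN-Veh, against 1.99% of all clusters, and 2 were without replicate 09 of UN-Veh. The mean over the markers was 4.66 to 4.74 in UN-Veh, and 4.80, 5.47, 7.26 and 5.04 on replicates 01 to 04 of NN-Veh. On replicate 03 of NN-Veh, 2 of the 12 markers were above the 95th percentile of the controls, and on the other arrays of these groups 0 were. Their part in the *Cox6b2* result was not tested.

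**Figure D3:**
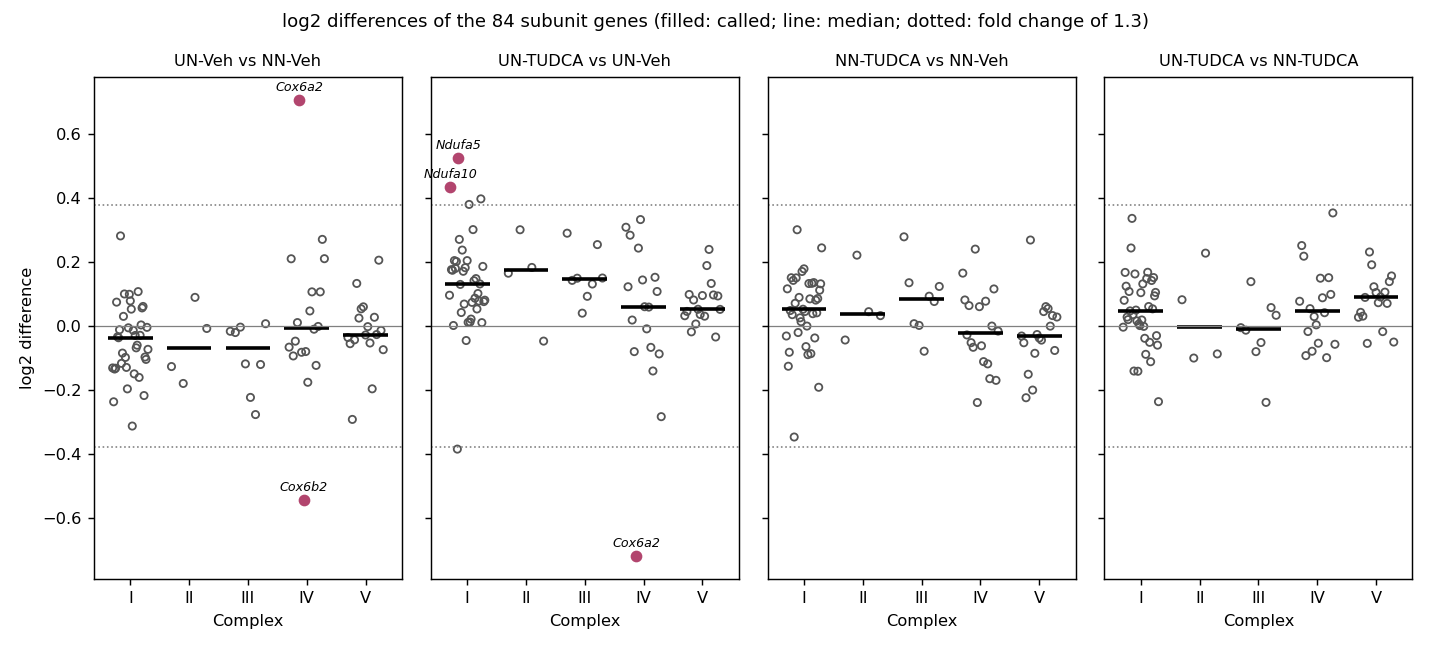
log2 differences of the 84 genes in 4 comparisons, by complex, with the median of each complex as a line and a fold change of 1.3 as dotted lines. Filled points are the genes called, which are 2 complex IV paralogs in UN-Veh against NN-Veh, and *Ndufa5*, *Ndufa10* and *Cox6a2* in UN-TUDCA against UN-Veh.

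The comparison of UN-TUDCA with UN-Veh asks what TUDCA changed in the fat of UN pups. Of the 84 genes, 2 were called higher, against 2.73% of all clusters, and 1 was called lower, against 3.18%. None passed an adjusted p of 0.05 in limma, 5 had an unadjusted p under 0.05, against 8.05% of all clusters, and the methods' t-test called 1 higher and 1 lower. The median log2 difference was 0.10, against 0.01 over all clusters, and 72 of the 84 genes (85.7%) were above zero, against 51.9% of all clusters. By complex, 35 of 37 genes were above zero in complex I, 3 of 4 in complex II, 8 of 8 in complex III, 11 of 18 in complex IV and 15 of 17 in complex V. The medians were 0.13, 0.17, 0.15, 0.06 and 0.05 in that order. This comparison shares the UN-Veh arrays with the one above.

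Cell type markers also differed in this comparison. Of 9 mesothelial markers, 7 were called higher in UN-TUDCA than in UN-Veh, with a median log2 difference of 1.35, and their mean was 7.93 to 9.33 in UN-TUDCA and 6.41 to 8.02 in UN-Veh. Of 12 adipocyte markers, 2 were called higher, with a median of 0.21 and means of 16.19 to 16.39 in UN-TUDCA and 15.92 to 16.26 in UN-Veh. Of 8 T and NK cell markers, 3 were called lower, with a median of -0.51 and means of 6.08 to 6.38 in UN-TUDCA and 6.47 to 7.28 in UN-Veh. Of 11 macrophage markers, 1 was called lower, with a median of -0.38 and means of 10.88 to 11.87 in UN-TUDCA and 11.85 to 11.97 in UN-Veh. Of 6 smooth muscle markers, 3 were called higher, with a median of 0.54. Of 13 brown and beige fat markers, 2 were called higher and 2 lower, with a median of -0.06. The shares of all clusters were 2.73% called higher and 3.18% called lower. Without UN-Veh replicate 09, 4 of the 12 adipocyte markers were called higher, against 4.08% of all clusters. On any array of these groups, no T and NK cell marker and at most 3 mesothelial markers were above the 95th percentile of the controls. The part of these markers in the subunit values was not tested.

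*Ndufa10*, an accessory subunit of the complex I membrane arm, had log2 intensities of 13.46, 13.62, 13.95 and 13.38 in UN-TUDCA, against 13.28, 13.11, 13.14 and 13.14 in UN-Veh. The 4 arrays of UN-TUDCA lay above all 4 of UN-Veh. The difference was 0.43 ± 0.14 (SE, limma, adjusted p = 0.332), with a two-sided exact permutation p of 0.0286, the smallest that 4 against 4 arrays can give. Any 4 against 4 arrays without overlap give this p, so here and below it only repeats the lack of overlap. In NN-TUDCA the gene had 13.57, 13.51, 13.30 and 13.69, against 13.41, 13.45, 13.19 and 13.57 in NN-Veh, and these ranges overlapped.

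*Ndufa5*, an accessory subunit of the matrix arm, had 11.75, 11.55, 12.09 and 11.19 in UN-TUDCA, against 11.53, 10.86, 11.10 and 11.01 in UN-Veh. Replicate 16 of UN-TUDCA was below replicate 09 of UN-Veh, and the other 3 arrays of UN-TUDCA were above all of UN-Veh. The difference was 0.52 ± 0.18 (SE, limma, adjusted p = 0.411). In NN-TUDCA it had 11.50, 11.46, 11.10 and 11.18, against 11.40, 11.26, 10.99 and 11.31 in NN-Veh.

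*Ndufc2*, an accessory subunit of the membrane arm, averaged 15.39 ± 0.30 in UN-TUDCA and 15.30 ± 0.16 in UN-Veh (SD, n = 4 each). Replicate 16 of UN-TUDCA lay below all of UN-Veh and replicate 15 above all of it, and the difference was 0.09 ± 0.14 (SE, limma, adjusted p = 0.959).

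In complex IV, *Cox5a*, a nuclear subunit that sits on the matrix side, had 12.18, 11.82, 12.25 and 11.89 in UN-TUDCA, against 11.81, 11.73, 11.78 and 11.68 in UN-Veh. The groups did not overlap, although the difference of 0.28 ± 0.13 (SE, limma, adjusted p = 0.609; exact permutation p = 0.0286) was below a fold change of 1.3. With *Ndufa10*, it was 1 of 2 subunit genes whose UN-TUDCA arrays were all higher, against 1.84% of all clusters, and no gene had all of them lower, against 2.05%. In UN-Veh against NN-Veh no subunit gene was free of overlap in either direction, against 2.46% of all clusters higher and 1.92% lower.

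**Figure D4:**
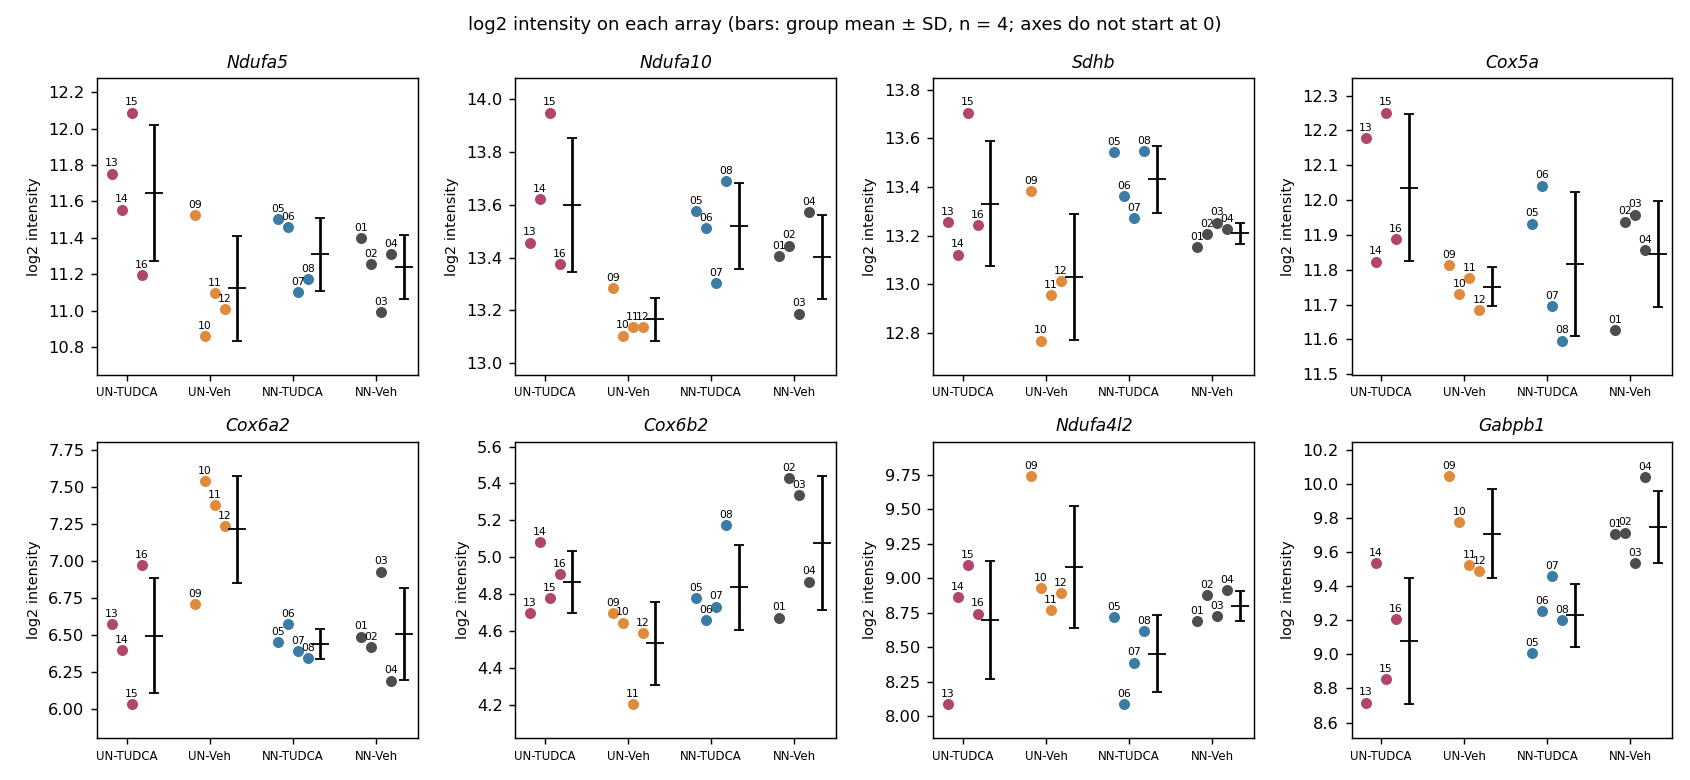
log2 intensity of 7 subunit genes and of *Gabpb1* on each array (points, numbered by replicate), with the group mean ± SD (n = 4). *Ndufa10* and *Cox5a* do not overlap between UN-TUDCA and UN-Veh, and *Cox6a2* is above 7 on 3 of the 4 UN-Veh arrays and on no other array.

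The counts depended on 2 arrays. Without UN-Veh replicate 09, 12 of the 84 genes (14.3%) were called higher in UN-TUDCA than in UN-Veh, against 4.08% of all clusters, the median difference was 0.21, and 78 genes were above zero. Of the 12, 9 were complex I genes, namely *Ndufa2*, *Ndufa5*, *Ndufa6*, *Ndufa10*, *Ndufa11*, *Ndufb2*, *Ndufb5*, *Ndufb9* and *Ndufs7*, and the others were *Sdhb*, *Uqcr10* and *Cox4i1*. Their differences ran between 0.38 for *Ndufa11* and 0.66 for *Ndufa5*. In this fit 1 gene was called lower, against 3.24% of all clusters. No adjusted p was under 0.05, and the lowest, 0.0996 in limma, was that of *Cox6a2*, at -0.89 ± 0.20 (SE). Without UN-TUDCA replicate 15, in contrast, none was called higher, against 1.98% of all clusters, 2 were called lower, against 2.68%, and the median was 0.04 with 55 genes above zero. The arrays were left out one at a time, and not both together. Replicate 09 was set apart because it was high in these same genes, the highest of UN-Veh in 75 of the 84. Leaving it out therefore raises their differences by construction, and the excess over the share of all clusters is no separate support. Leaving out replicate 15 lowers them in the same way.

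Without UN-Veh replicate 09, 5 genes were called between UN-Veh and NN-Veh. *Cox6a2* was higher at 0.88 ± 0.20, against 3.22% of all clusters called higher. *Cox6b2*, *Ndufb5*, *Ndufb7* and *Ndufs7* were lower, against 3.42% of all clusters. *Ndufb7*, an accessory subunit of the membrane arm, had 10.18, 8.98, 9.35 and 9.13 in UN-Veh, against 9.49, 9.61, 9.51 and 9.62 in NN-Veh. Replicate 09 of UN-Veh was above all of NN-Veh and the other 3 arrays were below all of it. The difference without replicate 09 was -0.41 ± 0.11 (SE, limma, adjusted p = 0.31). *Ndufs7*, an iron-sulfur subunit next to the ubiquinone site, differed by -0.44 ± 0.17, and *Ndufb5* by -0.49 ± 0.16. The median of the 84 genes was then -0.14, with 72 below zero. The direction of this shift also follows from leaving out the array that was high in these genes. With replicates 11 or 12 of UN-Veh left out instead, the median was 0.01 each.

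**Figure D5:**
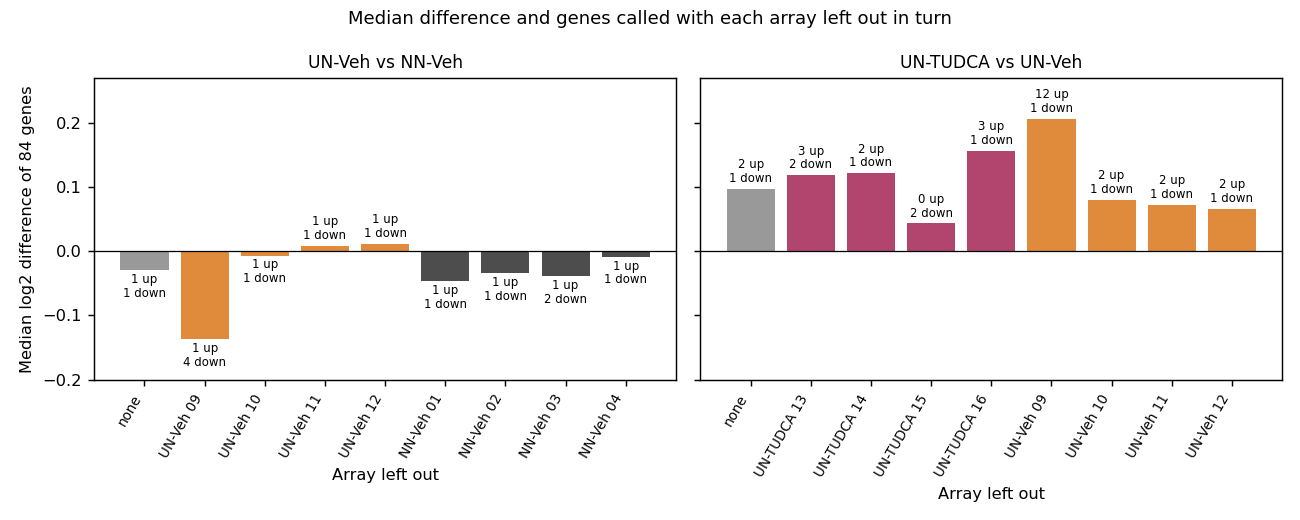
Median log2 difference of the 84 genes (bars, with the number called higher and lower) with no array left out and with each array left out in turn. Without UN-Veh replicate 09 the medians are -0.14 in UN-Veh against NN-Veh and 0.21 in UN-TUDCA against UN-Veh, and without UN-TUDCA replicate 15 UN-TUDCA against UN-Veh has a median of 0.04.

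The 4 genes of complex II, which is also the succinate dehydrogenase of the citrate cycle, were not called in any comparison with all 16 arrays. *Sdhb*, the iron-sulfur subunit, had 13.25, 13.12, 13.71 and 13.24 in UN-TUDCA, against 13.38, 12.77, 12.95 and 13.01 in UN-Veh, and the difference was 0.30 ± 0.15 (SE, limma, adjusted p = 0.634). It was called without UN-Veh replicate 09, at 0.42 ± 0.14 (SE, limma, adjusted p = 0.301). In NN-TUDCA it had 13.54, 13.36, 13.27 and 13.55, against 13.15, 13.21, 13.25 and 13.23 in NN-Veh. The NN groups did not overlap, with a difference of 0.22 ± 0.15 (SE, limma, adjusted p = 1; exact permutation p = 0.0286). This was the 1 subunit gene without overlap in that comparison, against 1.74% of all clusters higher, and none was lower without overlap, against 1.86%. *Sdha*, the flavin subunit, and *Sdhc* and *Sdhd*, the membrane anchors, differed by 0.17, 0.18 and -0.05 in UN-TUDCA against UN-Veh.

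In complex III, *Uqcrb*, a subunit near the ubiquinone site, had 17.57, 17.41, 17.56 and 17.30 in UN-TUDCA, against 17.45, 17.20, 17.23 and 17.36 in UN-Veh, and the groups overlapped. *Uqcrfs1*, the Rieske iron-sulfur protein, had 12.10, 11.70, 11.76 and 11.73 in UN-Veh, against 11.99, 12.20, 12.12 and 12.10 in NN-Veh. Of the UN-Veh arrays, 3 were below all of NN-Veh, and the difference was -0.28 ± 0.12 (SE, limma, adjusted p = 0.792), short of a fold change of 1.3. In complex V, *Atp5c1*, the gamma subunit of the rotor stalk, had 15.24, 14.99, 15.04 and 14.98 in UN-Veh, against 15.31, 15.61, 15.06 and 15.43 in NN-Veh, with a difference of -0.29 ± 0.12 (SE, limma, adjusted p = 0.763). *Atp5b*, the catalytic beta subunit, had 17.21, 17.31, 17.36 and 17.22 in UN-TUDCA, against 17.25, 17.19, 17.32 and 17.15 in UN-Veh, and differed by 0.05 ± 0.10 (SE). Its 95% interval, -0.17 to 0.26, lay inside a 1.3-fold change.

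Several subunits of complex IV have a widespread and a tissue-restricted form. *Cox4i1*, the widespread form of subunit 4, differed by 0.31 ± 0.23 and *Cox4i2*, the lung form, by 0.12 ± 0.18 in UN-TUDCA against UN-Veh. *Cox7a1*, the muscle form of subunit 7A, differed by 0.06 ± 0.14, and *Cox7a2*, the liver form, by -0.01 ± 0.15 (SE, limma). *Cox8b*, the muscle form of subunit 8, had 6.72, 6.66, 7.89 and 7.05 in UN-TUDCA, against 7.34, 7.36, 7.13 and 6.83 in UN-Veh, and replicate 15 of UN-TUDCA was the highest of all 16 arrays. On that array the mean over 12 striated muscle markers was 6.52, against 6.16 to 6.34 on the other UN-TUDCA arrays. Its mean over 13 brown and beige fat markers was 5.96, within their range of 5.79 to 6.32. The part of these markers in the *Cox8b* values was not tested. *Ndufa4l2*, a hypoxia-induced relative of *Ndufa4*, had 8.09, 8.86, 9.09 and 8.74 in UN-TUDCA, against 9.74, 8.93, 8.77 and 8.89 in UN-Veh. Replicate 09 of UN-Veh held the highest value, and the difference was -0.38 ± 0.23 (SE, limma, adjusted p = 0.727). Of 16 paralogs listed, *Cox6a2* and *Cox6b2* were the 2 called with all arrays. *Cox4i1*, without UN-Veh replicate 09, was called higher in UN-TUDCA than in UN-Veh, at 0.50 ± 0.22 (SE, limma, adjusted p = 0.498).

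In NN pups, TUDCA moved no subunit gene past the thresholds. In NN-TUDCA against NN-Veh, 0 of 84 genes were called by limma or by the methods' t-test, against 1.36% of all clusters higher and 1.93% lower, and 0 had an unadjusted p under 0.05, against 4.90%. The median was 0.03, 49 genes were above zero, and the 95% interval of 38 genes lay inside a 1.3-fold change. Similarly, 0 of 84 genes were called in UN-TUDCA against NN-TUDCA by limma or by the methods' t-test, against 1.16% of all clusters higher and 0.675% lower, and 0 had an unadjusted p under 0.05, against 3.06%. The median was 0.05 with 57 genes above zero. Without UN-TUDCA replicate 15 the median was -0.01, with 37 genes above and 47 below zero, and again 0 were called, against 1.03% of all clusters higher and 0.955% lower. *Atp5g2*, which encodes a copy of the c subunit of the membrane ring, had 14.85, 15.13, 14.90 and 14.94 in UN-TUDCA, against 14.85, 14.77, 14.61 and 14.83 in NN-TUDCA. These groups did not overlap when unrounded, as in 0.959% of all clusters higher and 0.932% lower, and differed by 0.19 ± 0.11 (SE, limma, adjusted p = 1).

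The interaction asks whether the TUDCA difference in UN pups differed from that in NN pups. Of the 84 genes, 1 was called higher and 1 lower, against 1.36% and 1.64% of all clusters, none passed an adjusted p of 0.05 in limma, and 2 had an unadjusted p under 0.05, against 3.16%. The median was 0.08, and 64 genes were above zero. The median half-width of the 95% interval was 0.45, wider than a 1.3-fold change. Both called genes were the dim complex IV paralogs named above, with *Cox6b2* at 0.57 ± 0.25 (SE, limma, adjusted p = 1). Without UN-Veh replicate 09, 6 of the 84 genes were called higher, against 2.09% of all clusters, and 1 was called lower, against 1.76%, with a median of 0.18 and 78 genes above zero. The direction of this shift, too, follows from the choice of the array left out. Without UN-TUDCA replicate 15, 1 was called higher and 0 lower, against 1.13% and 1.78% of all clusters, and the median was 0.01 with 45 genes above zero.

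Other genes of the mitochondrion gave few calls. Of 44 assembly factors, 2 were called higher in UN-TUDCA than in UN-Veh, *Ecsit*, which acts in complex I assembly, at 0.66 ± 0.21 and *Cox15*, which makes heme A for complex IV, at 0.39 ± 0.15 (SE), against 2.73% of all clusters, and the median was 0.12. Of 76 genes of the mitochondrial ribosome, 1 was called higher, with a median of 0.05. Without UN-Veh replicate 09, 6 assembly factors and 9 ribosome genes were called higher, against 4.08% of all clusters, with medians of 0.17 and 0.18. In UN-Veh against NN-Veh of the same fit, 1 of the 44 assembly factors and 7 of the 76 ribosome genes were called lower. The share of all clusters was 3.42%, and both medians were -0.17. The remaining UN-Veh arrays enter both comparisons. On replicate 09 the mean over the ribosome genes was 10.21, against 9.63 to 9.78 on the other UN-Veh arrays.

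Among 17 genes of the citrate cycle and pyruvate dehydrogenase, *Idh2*, the mitochondrial NADP isocitrate dehydrogenase, was higher in UN-TUDCA than in UN-Veh at 0.44 ± 0.16, and *Dlat*, the acetyltransferase of pyruvate dehydrogenase, was lower at -0.44 ± 0.18 (SE). *Pdha1*, the E1 alpha subunit of that complex, was lower in UN-Veh than in NN-Veh at -0.40 ± 0.17. *Coq2*, of ubiquinone synthesis, was the 1 of 15 electron and inner membrane carriers called in UN-TUDCA against UN-Veh, at 0.49 ± 0.23, and *Vdac1*, the outer membrane channel, the 1 of 12 outer membrane and import genes, at 0.49 ± 0.14. None of these genes had an adjusted p under 0.05. The shares of all clusters called were 2.73% higher and 3.18% lower in UN-TUDCA against UN-Veh, and 1.99% lower in UN-Veh against NN-Veh. With UN-Veh replicate 09 left out, 2 citrate cycle and pyruvate dehydrogenase genes were called higher and 1 lower in UN-TUDCA against UN-Veh, and 1 higher and 3 lower in UN-Veh against NN-Veh. The shares of all clusters were then 4.08% higher and 3.24% lower in the former, and 3.22% higher and 3.42% lower in the latter.

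Of 19 regulators of mitochondrial biogenesis, *Gabpb1* was called lower with TUDCA in both backgrounds, against 3.18% of all clusters in UN pups and 1.93% in NN pups. It encodes the beta subunit of GABP (NRF-2), an activator of many subunit genes. It had 8.72, 9.53, 8.85 and 9.21 in UN-TUDCA, against 10.05, 9.77, 9.52 and 9.49 in UN-Veh, and the difference was -0.63 ± 0.18 (SE, limma, adjusted p = 0.279). In NN-TUDCA it had 9.01, 9.25, 9.46 and 9.20, against 9.70, 9.71, 9.53 and 10.04 in NN-Veh, with a difference of -0.52 ± 0.18 (SE, limma, adjusted p = 0.843). The NN groups did not overlap, as in 1.86% of all clusters lower, and in UN pups 1 array of UN-TUDCA lay within the range of UN-Veh. In NN-TUDCA against NN-Veh, *Pprc1*, a coactivator related to PGC-1, was also called lower at -0.40 ± 0.17, and *Polg2*, the accessory subunit of the mitochondrial DNA polymerase, higher at 0.42 ± 0.13. There, 2 of the 19 regulators were called lower and 1 higher, against 1.93% and 1.36% of all clusters. *Ppargc1a*, which encodes PGC-1 alpha, differed by 0.53 ± 0.56 in UN-TUDCA against UN-Veh and *Nrf1* by -0.10 ± 0.12.

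Because GABP and NRF1 are known regulators of these genes, the promoters were searched for their motifs. RefSeq promoters (GRCm38.p6, 250 bases before to 50 after the gene start) were at hand for 69 of the 84 genes, as 74 windows. The letters CCGGAAG (GABP), on either strand, occurred in 23.0% of the windows. They occurred in 8.86% of all 32851 promoters of the table and in 11.8% of the 19143 promoters of genes on the array. CGCANGCG (NRF1), where N is any base, occurred in 39.2%, against 8.21% of all promoters and 11.7% of those on the array. These letters were shortened from a longer motif after matches had been counted, so their shares are a description only. In the same order, AAGATGGC (YY1) occurred in 13.5%, against 2.75% and 3.1%, and AAGGTCA (ERR) in 10.8%, against 4.72% and 3.93%. No motif holds another. Of the 69 genes, 35 held the GABP or the NRF1 letters and 8 held both. The NRF1 letters were held by 34.3% of the 35 windows of complex I, 66.7% of 3 of complex II, 60.0% of 5 of complex III, 7.69% of 13 of complex IV and 61.1% of 18 of complex V. Complex IV, with 1 window, was thus below the share on the array. The GABP letters were held by 11.4%, 66.7%, 40.0%, 23.1% and 33.3% in that order, so complex I was near the share on the array. A match is a stretch of letters and was not tested as a binding site. Stretches are shown for *Ndufa5*, which was called, and for 3 genes of other complexes that were not, with the motif in capitals, 5′ to 3′ on the gene's strand.
*Ndufa5* (complex I, NRF1, chr6:24527681-24527740, minus strand): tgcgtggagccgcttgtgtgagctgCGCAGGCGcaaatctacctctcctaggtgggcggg
*Sdhd* (complex II, NRF1, chr9:50603893-50603952, minus strand): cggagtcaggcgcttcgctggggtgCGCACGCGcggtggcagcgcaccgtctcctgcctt
*Sdhd* (complex II, GABP, read on the other strand, chr9:50603861-50603920, minus strand): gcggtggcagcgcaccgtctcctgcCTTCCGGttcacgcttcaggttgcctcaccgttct
*Uqcr11* (complex III, GABP, chr10:80406853-80406912, minus strand): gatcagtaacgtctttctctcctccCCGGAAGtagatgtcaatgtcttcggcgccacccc
*Cox6a1* (complex IV, NRF1, chr5:115349085-115349144, minus strand): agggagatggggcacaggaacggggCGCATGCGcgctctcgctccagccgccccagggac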

How the data were processed

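Total RNA of epididymal fat was hybridised to Clariom S mouse arrays after labelling with the WT PLUS kit. The deposited values are intensities on a linear scale, already normalized by the authors. The submitters' processing notes name Transcriptome Analysis Console, and which software and method normalized the values is not given in the sources used here. Of 22520 lines, 314 control probe sets were left out. After a log2 step, limma 3.58.1 (R 4.3.3) estimated the 4 group means together, with moderated variances and Benjamini-Hochberg adjustment across all 22206 clusters, dim ones included. The fit was tested on simulated data. Samples were grouped by their titles, and 16 arrays limit the precision. Genes named by rule were the called subunit genes, the brightest of each complex, the complex II genes, the paralogs by tissue and the called regulators. *Cox5a*, *Atp5g2*, *Atp5c1*, *Uqcrfs1*, *Ndufb7*, *Ndufb5* and *Ndufs7* and the called genes of other lists were picked with their values known. The NRF1 letters are the core of a longer motif and were shortened after matches had been counted. The members and lists were chosen with earlier results of these data known. Figures were drawn with matplotlib. The alternatives tried are given at the end.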

Additional observations from a re-analysis of the deposited data

Results flagged for a closer look

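In a group of 4 arrays, 1 array was set against the other 3 for the means of the complexes and for 29 named genes, 140 groups in all, of which 11 had an array far from the others by Dixon's test. Chance gives about 1 in 20. Of the 11, 4 concern UN-Veh replicate 09. Its mean over all 84 subunit genes was 12.60 (others 12.17 to 12.23), over complex I 12.53 (11.98 to 12) and over complex III 12.62 (12.20 to 12.26), and *Ndufa4l2* was 9.74 (8.77 to 8.93). UN-TUDCA replicate 15 was high in *Sdhc* at 12.02 (11.63 to 11.68).

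In the NN groups, NN-TUDCA replicate 07 was low in *Cox6a1* at 16.20 (16.47 to 16.49) and in *Ndufa4* at 15.05 (15.37 to 15.42). NN-TUDCA replicate 08 was high in *Atp5b* at 17.43 (17.14 to 17.19), and NN-TUDCA replicate 05 was low in *Uqcrb* at 17.21 (17.35 to 17.37). NN-Veh replicate 04 was high in *Cox6a1* at 16.55 (16.42 to 16.44), and NN-Veh replicate 02 was low in *Polg2* at 6.69 (6.990 to 6.997).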

How the results depend on the processing

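Quantile normalization, median centring, 1 cluster per gene, the 2 compared groups alone and an intensity trend with a robust prior kept every count of calls within 1.5 times. With dim clusters removed, 0 genes were lower in UN-Veh against NN-Veh and 0 higher in the interaction. The t-test the methods name called 1 gene higher in UN-TUDCA against UN-Veh. With no fold change, 3 genes were lower in UN-Veh against NN-Veh and 4 higher in UN-TUDCA against UN-Veh. With paralogs left out, the counts were 0 higher and 0 lower in UN-Veh against NN-Veh, 0 lower in UN-TUDCA against UN-Veh, and 0 higher and 0 lower in the interaction. Without the 4 arrays with cilia transcripts (1 per group), 1 gene was higher in UN-TUDCA against NN-TUDCA, and 0 higher and 0 lower in the interaction. Leaving out each array in turn gave 1 to 4 genes lower in UN-Veh against NN-Veh, 0 to 12 higher and 1 to 2 lower in UN-TUDCA against UN-Veh, 0 to 1 higher in UN-TUDCA against NN-TUDCA, and 0 to 6 higher and 0 to 2 lower in the interaction. The counts of 4, 12 and 6 came without UN-Veh replicate 09, and 0 higher in UN-TUDCA against UN-Veh without UN-TUDCA replicate 15. No interaction call was made without NN-TUDCA replicate 05, 06 or 07, NN-Veh replicate 02, UN-Veh replicate 11 or UN-TUDCA replicate 14. The causes were not tested. No result changed sign at a call. No median of the 84 genes moved by more than 1 SD between arrays of a group (0.224). That SD was wider than the medians of the full fit, so this rule could hardly mark a change. The median of UN-TUDCA against UN-Veh went from 0.10 to 0.21 without UN-Veh replicate 09 and to 0.04 without UN-TUDCA replicate 15. That of UN-Veh against NN-Veh went from -0.03 to -0.14 without UN-Veh replicate 09 and to 0.01 without UN-Veh replicate 11 or 12. No paired analysis was possible because the replicate numbers run 01 to 16 and no groups share one. Signal near that of the control probes limits *Cox6a2* and *Cox6b2*.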
